A study of Mus musculus with 4 samples.

Results

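Genes of fatty acid oxidation and ketone body formation were examined in mouse liver tumours and normal liver. The set holds 32 genes chosen by symbol from a pathway list, of 25793 gene symbols in each count table, and all 32 were found, Eci1 under its older symbol Dci. By role, 3 serve entry of fatty acids into mitochondria, 10 mitochondrial beta-oxidation, 3 electron transfer to the respiratory chain, 9 peroxisomal oxidation, 5 fatty acid binding, activation or thioester hydrolysis, and 2 ketone or hormone output.

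RNA was sequenced from 4 libraries. Tumours 1 and 2 were labelled as liver tumours of beta-2SP+/- ; SMAD3+/- mice, which carry 1 functional copy each of the gene for the SMAD3 adaptor beta-2 spectrin and of Smad3. The normal libraries were labelled as normal liver, 1 of a mouse of that same double heterozygous genotype and 1 of a wild type mouse. No age, sex or treatment is given for any group, and whether the tumours are from different animals is not given, so p-values measure only the spread between these samples, which may be technical. The short descriptions carry the word Tcell for both tumours and name hepatocytes for both normal libraries.

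Fatty acids are shortened by cycles of dehydrogenation, hydration, dehydrogenation and thiolytic cleavage. Mitochondria do this for most chain lengths after a carnitine shuttle has carried the acyl group across their membranes, while peroxisomes start on very long and branched chains. In the fasting liver the acetyl-CoA formed is turned into ketone bodies for export, and the nuclear receptor PPAR-alpha is known to drive many genes of both organelles.

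The libraries held between 11049931 (tumour 1) and 18448621 (wild type normal) counts in genes. The normal tables held equal counts in 56.8% of 2632 genes whose mean count lay between 1 and 5, while the tumours did so in 13.1% of 2299 such genes, so the normal tables differed by less than sampling noise at low counts and were counted as 1 sample through their mean. Hepatocyte markers were checked against the label. The summed level of 17 such markers was 325 and 466 CPM (counts scaled to library size, with TMM factors over the 4 tables) in tumours 1 and 2, against 254287 and 231481 CPM in double heterozygous and wild type normal liver. Of these 17, 6 had at most 3 counts in each tumour, Cyp7a1, Tat and Hpd among them. Others were detected at lower levels than in normal liver, Alb at 7.02 and 36.7 CPM in the tumours and 112914 and 102273 CPM in normal liver. Trf stood at 180 and 327 CPM in the tumours and 32441 and 28953 CPM in normal liver. Hnf4a, a hepatocyte transcription factor gene, was at 133 and 90.6 CPM in the tumours and 1181 and 1030 CPM in normal liver, and was the marker that did not pass the test. Markers of T cells were near 0, with 9 of 10 at no more than 3 counts in each tumour and a summed level of 0.514 and 0.592 CPM in the tumours, against 5.21 and 5.91 CPM in normal liver. Bile duct markers summed to 2419 and 1929 CPM in tumours 1 and 2, against 48.9 and 43.1 CPM in the normal libraries. The largest part of both tumour sums was Spp1, at 1293 and 1344 CPM. Of the 9 markers, 8 were higher in both tumours than in both normal libraries. The exception was Epcam, at 20.3 and 0.182 CPM in tumours 1 and 2, against 4.79 and 4.11 CPM in normal liver. In bulk RNA, fewer cells of a type and less RNA per cell cannot be told apart.

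Promoter sequence of 30 members was available in RefSeq (GRCm38.p6), and 4 sequences are shown because their genes mark the range of responses described below. Acaa1b and Acaa1a encode the peroxisomal thiolases, near-identical enzymes that differed widely in the tumours, and Acot12 is a member with no count in either tumour. In these 3 the capitals mark CpG dinucleotides. In Fabp1, which encodes the liver fatty acid binding protein, the capitals mark a match to the direct repeat that PPAR-alpha and its partner RXR bind. Each is the 250 bases before the transcription start, written 5′ to 3′ on the gene's strand. They lie at chr9:119157094-119157343 (minus strand) for Acaa1b, chr9:119341044-119341293 (plus) for Acaa1a, chr13:91741271-91741520 (plus) for Acot12 and chr6:71199629-71199878 (plus) for Fabp1.
Acaa1b: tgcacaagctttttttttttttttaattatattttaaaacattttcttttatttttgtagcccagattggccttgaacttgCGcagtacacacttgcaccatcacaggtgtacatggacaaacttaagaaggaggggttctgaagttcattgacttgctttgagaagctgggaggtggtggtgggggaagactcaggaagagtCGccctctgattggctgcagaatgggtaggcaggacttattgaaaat
Acaa1a: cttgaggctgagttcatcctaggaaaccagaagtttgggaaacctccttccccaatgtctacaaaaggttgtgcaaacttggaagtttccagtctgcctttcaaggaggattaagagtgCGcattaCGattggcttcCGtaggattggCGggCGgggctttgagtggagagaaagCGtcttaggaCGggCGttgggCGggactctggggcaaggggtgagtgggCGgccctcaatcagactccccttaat
Acot12: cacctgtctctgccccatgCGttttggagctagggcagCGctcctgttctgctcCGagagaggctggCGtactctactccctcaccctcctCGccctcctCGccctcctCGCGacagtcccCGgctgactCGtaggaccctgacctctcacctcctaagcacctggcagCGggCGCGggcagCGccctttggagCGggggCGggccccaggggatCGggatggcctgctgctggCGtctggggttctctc
Fabp1: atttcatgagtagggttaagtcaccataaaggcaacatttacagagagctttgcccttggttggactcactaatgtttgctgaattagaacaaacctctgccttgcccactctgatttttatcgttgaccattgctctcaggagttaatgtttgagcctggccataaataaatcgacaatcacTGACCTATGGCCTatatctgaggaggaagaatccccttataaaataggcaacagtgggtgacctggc

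The first question was how the tumours differed from normal liver. All 32 members were tested, and all were lower in both tumours than in both normal tables, against 37.7% of the 14468 genes tested, while 40.8% of those genes were higher in both tumours. Of the 32 members 12 fell in the tumours and 0 rose (edgeR quasi-likelihood test, Benjamini-Hochberg adjusted p under 0.05 over all genes tested), where 5.19% of all genes tested fell and 2.23% rose (7.42% in either direction). At an unadjusted p under 0.05, 29 members were lower and 0 higher, where 15.5% of all genes tested were lower and 12.5% higher. DESeq2 called 25 members lower and 0 higher, where 12.8% of the 13626 genes it gave an adjusted p were called lower and 12.2% higher. The median log2 fold change was -3.16 over the members and 0.19 over all genes tested. The difference was 2.35-fold for Acsl5 at the small end, and 8300-fold for Fabp1 and 8410-fold for Slc27a2 at the large end. Acot12, with no count in the tumours, has only a bound of at least 1438-fold. Acot3 also had no count in either tumour, and both genes passed the count filter through the normal library alone. So did Fabp1, with 7 and 3 counts in the tumours, and Fgf21, with 2 and 1. For these members a fall was the only call possible. The tumours give no spread for Acot3 and Acot12, so their calls among the 12 rest on spread borrowed from other genes. In all, 8 members were over 100-fold lower by the fitted value while 18 were under 10-fold lower. Hepatocyte markers moved in the same direction, with 16 of 17 called lower, and 4 of 9 bile duct markers rose. The part of either in the results on fatty acid genes was not tested.

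**Figure D1:**
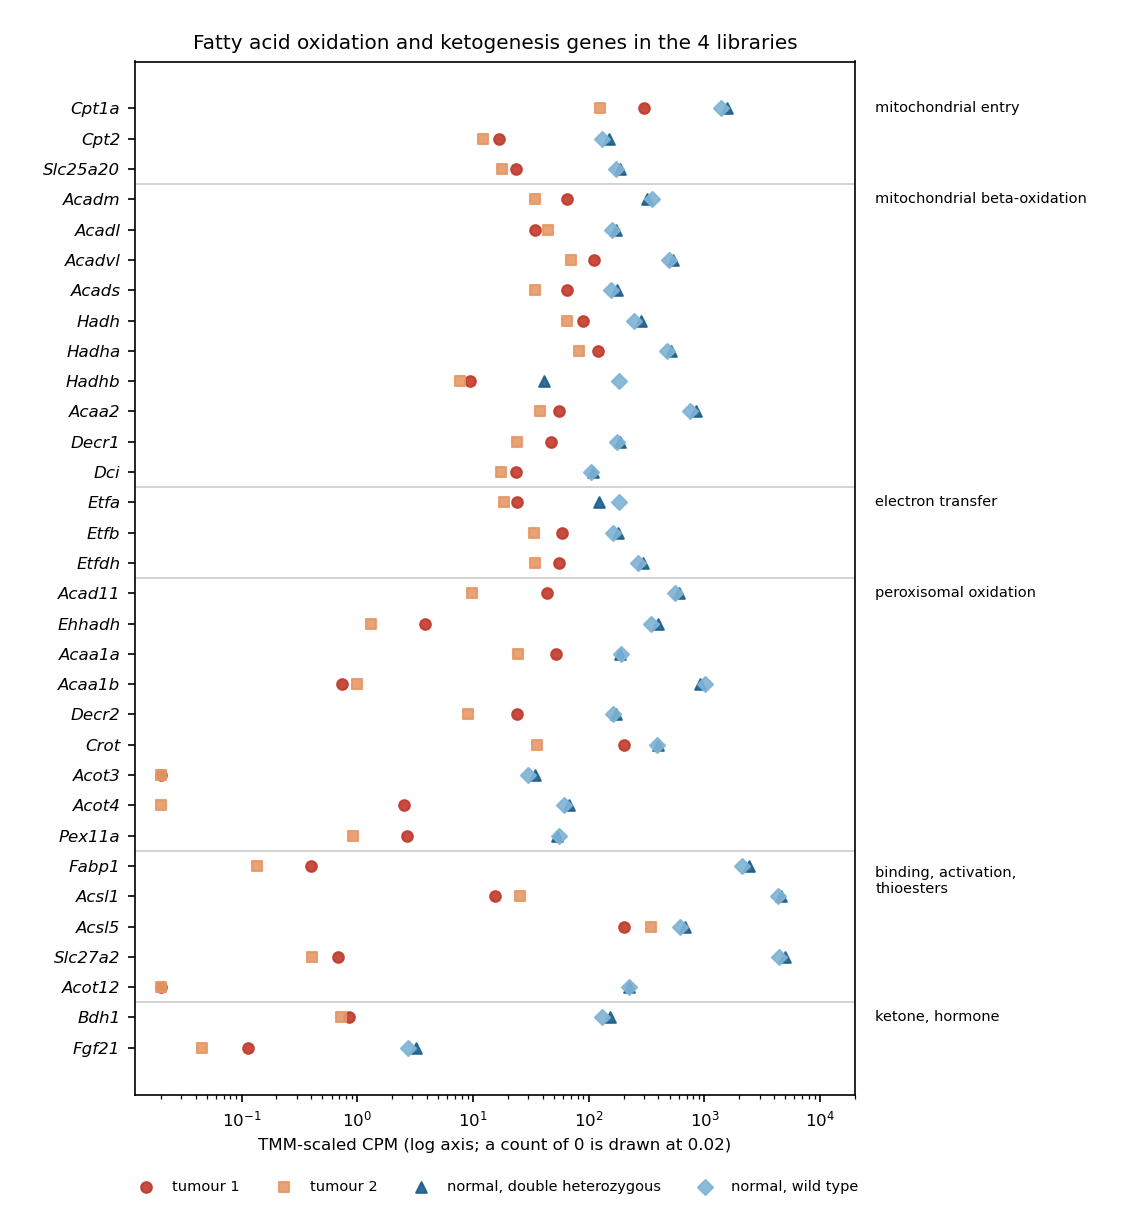
Level of each member in every library, as TMM-scaled CPM on a log axis, grouped by role. Both tumour points (circles and squares) lie left of both normal points (triangles and diamonds) for all 32 genes. The widest margins are those of Fabp1, Slc27a2 and Acot12. A gene with no count in a tumour, such as Acot12, is drawn there at a fixed low value.

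Scaling matters for the smaller differences. TMM scaling placed the tumours lower relative to normal liver than library size alone did, and without it the median of all genes tested was 1.56 and that of the members -1.80. The distance between these medians was -3.36 with TMM and -3.36 without it. Without scaling 7 members were called lower, where 3.26% of all genes were, and 31 of 32 kept a negative log2 fold change, the exception being Acsl5. In that fit 42.6% of all called genes were lower, against 70.0% with TMM.

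**Figure D2:**
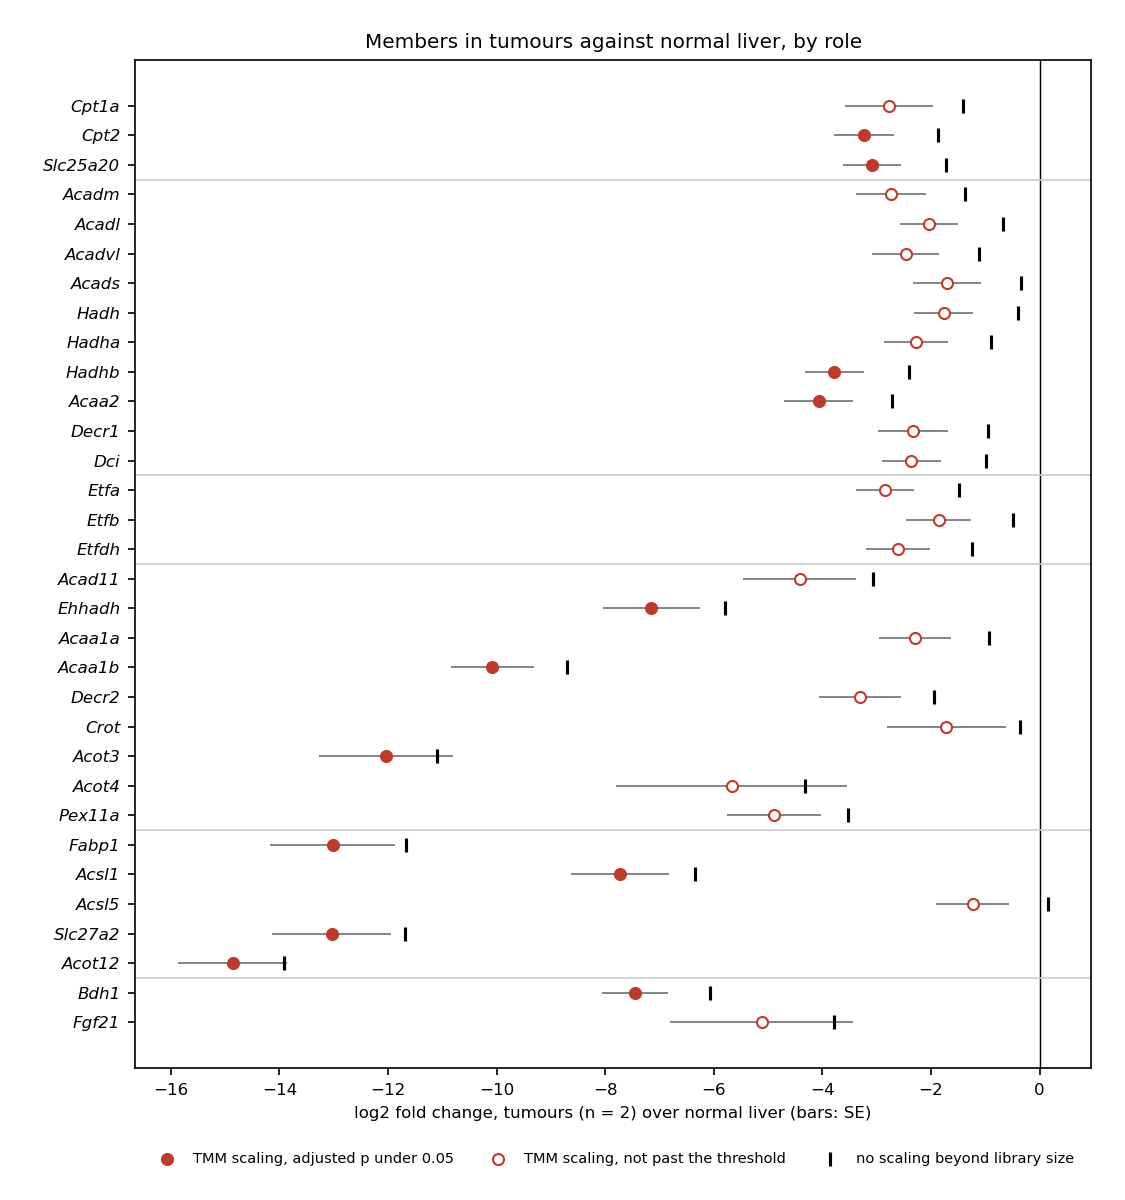
Log2 fold change of each member in tumours over normal liver, with the standard error as bars (n = 2 tumours and 1 normal library), filled where the adjusted p was under 0.05. Black ticks give the value without scaling, which lies to the right of the TMM value for every member and above 0 for Acsl5 alone.

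Transcripts of the 3 genes for entry into mitochondria were lower in both tumours, and 2 of the 3 passed the test. Cpt1a encodes the carnitine acyltransferase of the outer membrane that controls the rate of entry. It stood at 300 and 125 CPM in tumours 1 and 2, against 1577 and 1386 CPM in double heterozygous and wild type normal liver. The groups did not overlap, but the tumours differed from each other and the log2 fold change of -2.78 (SE 0.81, adjusted p = 0.123) did not pass the test. Cpt2, the acyltransferase of the inner membrane, fell, at 16.9 and 12.2 CPM in the tumours and 151 and 129 CPM in normal liver (log2 fold change -3.23, SE 0.55, adjusted p = 0.0475). Slc25a20 encodes the translocase that moves acylcarnitine between them, and it fell too, at 23.5 and 17.8 CPM against 186 and 171 CPM (-3.09, SE 0.54, adjusted p = 0.0492). Both of these calls lie close to the threshold. Without scaling the adjusted p was 0.0956 for Cpt2 and 0.0983 for Slc25a20, and upper quartile scaling also ended both calls (0.0528 and 0.0553).

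In the mitochondrial cycle 2 of 10 genes fell, both encoding thiolases, which cleave acetyl-CoA from the chain in the last step. Acaa2, the mitochondrial 3-ketoacyl-CoA thiolase, was at 55.2 and 37.9 CPM in the tumours and 842 and 753 CPM in normal liver, 16.8-fold lower (log2 fold change -4.07, SE 0.63, adjusted p = 0.0410). Hadhb, the thiolase subunit of the trifunctional protein, was at 9.42 and 7.69 CPM in the tumours, against 41.1 CPM in double heterozygous and 182 CPM in wild type normal liver. Its fall (-3.78, SE 0.54, adjusted p = 0.0361) was lost against the double heterozygous table (-2.26, adjusted p = 0.0809) and held against the wild type one (-4.41, adjusted p = 0.0241). Of the 31-mers of Hadhb, 22.6% also occur in transcripts of another gene, so its counts are uncertain. Without scaling, neither thiolase passed (adjusted p = 0.0635 for Acaa2 and 0.0726 for Hadhb).

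The other 8 genes of the cycle had log2 fold changes between -1.71 and -2.74, and none passed, although each was lower in both tumours than in both normal tables. At the small end was Acads, the short-chain acyl-CoA dehydrogenase gene, with 1147 and 748 counts in the tumours against 1685 and 1828 counts in the normal tables (SE 0.63, adjusted p = 0.177). At the large end was Acadm, for medium chains, at 65.2 and 34.5 CPM against 317 and 353 CPM (SE 0.64, adjusted p = 0.0836). Acadvl (36.7% shared 31-mers) and Acadl, which act on very long and long chains, had log2 fold changes of -2.47 and -2.04, and Hadha, the other trifunctional subunit, of -2.27. Hadh, a 3-hydroxyacyl-CoA dehydrogenase gene, was at -1.77. Decr1 and Dci, whose products prepare unsaturated chains for the cycle, were at -2.33 and -2.36. DESeq2 called 3 of the 4 acyl-CoA dehydrogenase genes of the first step, Acadm (adjusted p = 0.00403), Acadvl (0.00574) and Acadl (0.0266), and not Acads (0.112). Whether the steps of the cycle differed from each other was not tested. Acadl was the mitochondrial member lower in tumour 1 than in tumour 2 (34.1 against 44.7 CPM), and the other 15 stood the other way round.

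Electron transfer flavoprotein passes electrons from these dehydrogenases to ubiquinone. Its genes did not pass the test. Etfa was at 24.2 and 18.6 CPM in the tumours and 122 and 184 CPM in normal liver (log2 fold change -2.85, SE 0.53, adjusted p = 0.0557), a value that passed against the wild type table alone (0.0406). Etfb was at 58.6 and 33.9 CPM against 180 and 161 CPM (-1.86, SE 0.60, adjusted p = 0.143, with 50.8% shared 31-mers), and Etfdh, the ubiquinone oxidoreductase gene, had a log2 fold change of -2.61 (adjusted p = 0.0778). Over all 16 mitochondrial members, 4 fell, where 5.19% of all genes tested did, and the median log2 fold change was -2.54. Without scaling 0 were called lower by edgeR, where 3.26% of all genes were. At an unadjusted p under 0.05 with TMM, 16 were lower, where 15.5% of all genes were. The 5.19% also stands beside the counts of fallen genes for each role.

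Peroxisomal members covered a wider span, with 3 of 9 called and a median log2 fold change of -4.89. Ehhadh, the bifunctional hydratase and dehydrogenase of peroxisomes, fell to 3.82 and 1.32 CPM in the tumours, against 395 and 346 CPM in normal liver, 142-fold lower (log2 fold change -7.15, SE 0.90, adjusted p = 0.0285). Acaa1b fell to 13 and 22 counts in the tumours against 8793 and 11740 counts in the normal tables (-10.08, SE 0.77, adjusted p = 0.0182). Acot3, a peroxisomal acyl-CoA thioesterase gene, had 0 and 0 counts in the tumours against 327 and 350. That is at least 204-fold lower with the floor of 3 counts per library (adjusted p = 0.0347, and 0.0527 without scaling). With no count in either tumour, its adjusted p rests on spread borrowed from other genes. The tumours did not overlap with normal liver in any of these genes.

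The other peroxisomal members did not pass. Acaa1a, the second peroxisomal thiolase gene, was at 51.7 and 24.5 CPM in the tumours and 186 and 190 CPM in normal liver (log2 fold change -2.29, SE 0.66, adjusted p = 0.121). Crot, which makes carnitine esters of shortened chains for transfer to mitochondria, had the smallest difference of the group, at 201 and 35.5 CPM against 399 and 388 CPM (-1.72, SE 1.10, adjusted p = 0.363). Acot4, a further thioesterase gene, had 44 counts in tumour 1 and 0 in tumour 2, against 647 and 718 in the normal tables (adjusted p = 0.182). These 2 genes were the members with the widest gap between the tumours. Decr2, an auxiliary reductase gene, was at -3.31 (adjusted p = 0.0807) and Acad11, an acyl-CoA dehydrogenase family gene, at -4.42 (adjusted p = 0.0850). Pex11a, whose product acts in peroxisome proliferation, had 47 and 20 counts in the tumours against 508 and 641 (-4.89, SE 0.87, adjusted p = 0.0521). It passed against either normal table taken alone in the fit of all 4 libraries (adjusted p = 0.0449 for the double heterozygous and 0.0404 for the wild type one).

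Of the 5 genes for binding, activation and thioester hydrolysis, 4 fell. Fabp1 carries fatty acids through the hepatocyte cytoplasm. It had 7 and 3 counts in tumours 1 and 2, against 23495 and 24679 counts in the normal tables (log2 fold change -13.02, SE 1.15, adjusted p = 0.0191). Slc27a2, a very long-chain acyl-CoA synthetase and transporter gene, had 12 and 9 counts against 47790 and 51978 (-13.04, SE 1.10, adjusted p = 0.0182). Both were thus present in each tumour at under 1 CPM, beside normal levels of 2112 CPM or more. Acot12, which encodes a cytosolic acetyl-CoA hydrolase, had 0 and 0 counts in the tumours against 2145 and 2619 (adjusted p = 0.0215). As for Acot3, that adjusted p rests on spread borrowed from other genes.

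The long-chain acyl-CoA synthetases Acsl1 and Acsl5 activate the same kind of substrate but differed in the size of the change. Acsl1 fell to 15.5 and 25.5 CPM in the tumours, against 4554 and 4288 CPM in normal liver, 212-fold lower (log2 fold change -7.73, SE 0.91, adjusted p = 0.0265). Acsl5 was at 201 and 344 CPM in the tumours against 682 and 618 CPM (-1.23, SE 0.67, adjusted p = 0.304), and its direction turned without scaling (0.15). Per kilobase of exon the ratio of Acsl1 to Acsl5 was 0.0784 and 0.0756 in tumours 1 and 2, against 6.79 and 7.06 in the normal libraries. For Acaa1b to Acaa1a this ratio was 0.0150 and 0.0426 in the tumours, against 5.13 and 5.51 in the normal libraries. These thiolase genes share sequence, with 43.9% and 23.8% of their 31-mers found elsewhere, so reads could pass from 1 to the other or be lost. For Ehhadh to Hadha, a peroxisomal and a mitochondrial enzyme of the same reactions, it was 0.0429 and 0.0215 in the tumours, against 1.03 and 0.983 in the normal libraries. A ratio within a library does not depend on its scaling.

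**Figure D3:**
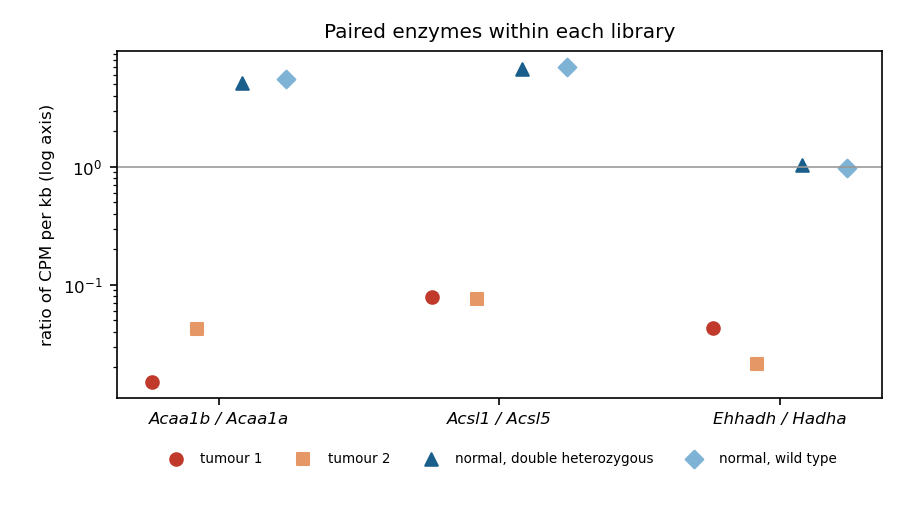
Ratio of CPM per kilobase of exon between paired enzymes within each library, on a log axis; the grey line marks a ratio of 1. For Acaa1b over Acaa1a and Acsl1 over Acsl5 the tumours lie below 0.1 and the normal libraries above 5.

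Levels per kilobase also ranked the members differently. In both normal libraries Fabp1, Slc27a2 and Acsl1 were the 3 highest members, at 4428, 1707 and 1092 CPM per kilobase in that labelled double heterozygous and 3820, 1525 and 1028 in that labelled wild type. In tumour 1 the highest were Cpt1a, Crot and Etfb (69.4, 67.1 and 65.6 CPM per kilobase), and in tumour 2 Acsl5, Etfb and Hadh (81.0, 38.0 and 35.9). Of the 3 highest in normal liver, the highest tumour value was 6.12 CPM per kilobase, for Acsl1 in tumour 2.

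Ketone body genes did not all move one way. Bdh1, the 3-hydroxybutyrate dehydrogenase gene, had 15 and 16 counts in the tumours against 1468 and 1532 counts in the normal tables, 175-fold lower (log2 fold change -7.45, SE 0.61, adjusted p = 0.0182; 13.9% of its 31-mers are shared). Oxct1, the transferase that tissues other than liver use to burn ketone bodies, rose to 127 and 121 CPM in the tumours, against 4.59 and 4.45 CPM in normal liver (4.79, SE 0.69, adjusted p = 0.0362). The tumours agreed closely for Oxct1 and Bdh1. Oxct1 has 11.3% shared 31-mers. Slc16a1, a monocarboxylate transporter gene, was at 189 and 204 CPM in the tumours against 185 and 156 CPM (0.24, adjusted p = 0.806, and 1.61 without scaling), so its levels lay close together. Fgf21, the fasting hormone gene placed with Bdh1 here, was scarce everywhere, with 2 and 1 counts in the tumours against 31 and 32 counts in the normal tables. Pooled over the tumours it was 39.1-fold lower, with an exact 95% interval of 12.2 to 200 that covers counting error only, and it did not pass (adjusted p = 0.149).

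**Figure D4:**
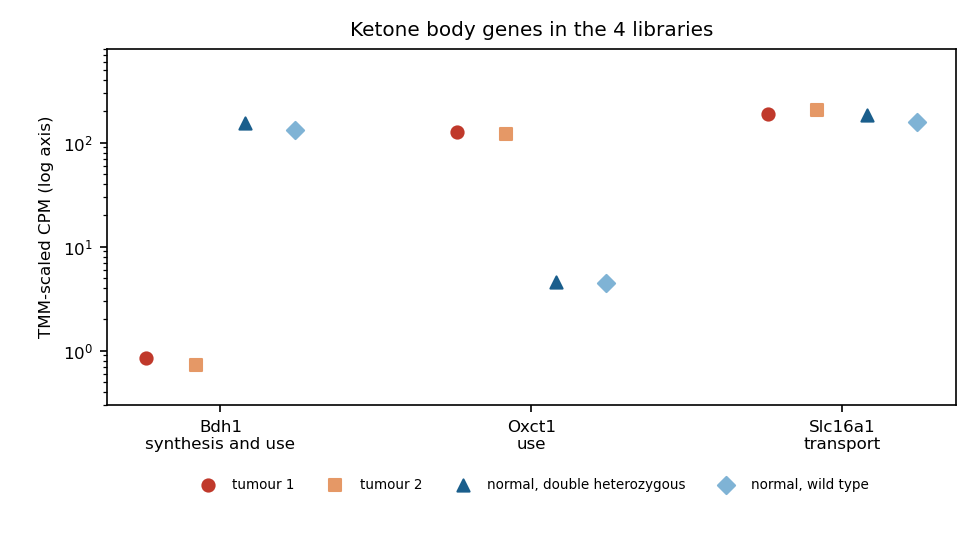
Bdh1, Oxct1 and Slc16a1 in the 4 libraries, as TMM-scaled CPM on a log axis. The tumours lie below the normal libraries for Bdh1 and above them for Oxct1, while the 4 values of Slc16a1 lie between 156 and 204 CPM.

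Genes around the set were read from lists of related pathway genes, and each count of fallen genes stands beside the 5.19% of all genes tested that fell. Listed genes tested with 5 counts or fewer in each tumour passed the count filter through the normal library alone, so only a fall could be called. They include the called genes Hao1, Uox, Agxt, Acsm1, Acsm3, Acsm5, Slc27a5, Klb, Plin5, Cyp4a10 and Cyp4a32. Among 22 other peroxisomal oxidation genes tested, 9 fell and 0 rose, with a median log2 fold change of -3.61. Uox and Agxt, for urate and glyoxylate, and Hao1, an oxidase of glycolate, were at 5 counts or fewer in each tumour (log2 fold changes of -13.60, -12.47 and -11.70), and Hacl1, of alpha-oxidation, was at -6.23 with 34.8% shared 31-mers. Of 15 peroxisome assembly genes 2 fell, Pex26 (-3.41, adjusted p = 0.0459) and Pex16 (-3.32, adjusted p = 0.0482), both not called without scaling (0.0891 and 0.0975) or with upper quartile scaling (0.0502 and 0.0542). Pex16 also lost its call without the normal table labelled wild type (0.0502). The median of the assembly list was -1.52, and -0.15 without scaling. In 19 other mitochondrial oxidation genes tested 1 fell, a share near that of all genes, namely Acacb (-8.38, adjusted p = 0.0285), whose product makes the malonyl-CoA that restrains Cpt1a. The median of this list was still -2.52, and -1.15 without scaling. At an unadjusted edgeR p under 0.05, 11 were lower and 1 higher, where 15.5% of all genes tested were lower and 12.5% higher. Cpt1c and Acot9 were higher in both tumours and did not pass with TMM (adjusted p = 0.186 and 0.0718). Acot9, with 25.3% shared 31-mers, passed without scaling (0.0437).

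Among 18 other binding, uptake and activation genes tested 4 fell, the medium-chain acyl-CoA synthetase genes Acsm1, Acsm3 and Acsm5, at no more than 1 count in each tumour, and the bile acid and fatty acid CoA ligase gene Slc27a5, at 4 and 4 counts in the tumours against 21855 and 22752 in the normal tables. Acsm3 has 35.5% shared 31-mers. Acot7 and Fabp5 were higher in both tumours than in the mean normal library, without passing (adjusted p = 0.292 and 0.409). Fabp5 had 172 and 432 counts in the tumours, against 21 and 119 counts in the normal tables.

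The receptor and its partners were read from a list of 16 PPAR regulators. Of 15 tested, 3 fell and 0 rose. Ppara, the receptor gene itself, had 49 and 11 counts in the tumours against 7713 and 8493 in the normal tables (log2 fold change -8.84, SE 1.29, adjusted p = 0.0366). Lpin1, a phosphatidate phosphatase gene whose product is known to act with the receptor, fell to 15.4 and 17.8 CPM against 2800 and 2628 CPM (-7.33, SE 0.78), and Klb, the co-receptor gene for FGF21, was at 0 and 1 counts against 1053 and 1101 (-11.59, SE 1.04). The median of this list was -1.42, and -0.05 without scaling. Of 23 other PPAR-alpha target genes tested, 8 fell and 0 rose, with a median of -5.68. Plin5, a lipid droplet protein gene, was at -9.68, and the fatty acid hydroxylase genes Cyp4a10 and Cyp4a32 at -13.55 and -12.97, with 50.8% and 60.4% of their 31-mers shared. The targets were not uniformly lower. Vnn1 and Ucp2 were higher in both tumours and did not pass, with Vnn1 at 147 and 145 CPM in the tumours against 80.2 and 68.2 CPM (1.00, adjusted p = 0.310) and Ucp2 at 2.19 (adjusted p = 0.156).

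The tumours were then compared with each normal table alone. Against the table labelled double heterozygous, which shares the tumours' genotype, 12 members were lower, where 5.69% of all genes were, and against that labelled wild type 14, where 6.62% were. Of the 12 members called against the mean, 11 were called against each table as well, the exception being Hadhb. These comparisons share the tumour libraries.

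Between the normal tables, the double heterozygous against the wild type one, the log2 ratio of 30 members lay between -0.16 and 0.23. The other 2, Hadhb at -2.15 and Etfa at -0.59, were over 1.5-fold lower in the table labelled double heterozygous, where 5.67% of the genes tested were. Both have more than 10% shared 31-mers, as do 12 of the 32 members. There is no replicate check of this comparison, and the sharing of counts described above applies to it.

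Between the tumours, tumour 1 was the higher for 26 members and tumour 2 for 4, and 2 had no count in either. Over 2-fold, 9 members were higher and 0 lower in tumour 1, while 14.8% of the genes tested were over 2-fold higher and 18.8% over 2-fold lower there. Of these 9, 7 were peroxisomal, Acot4 (log2 ratio of tumour 1 to tumour 2 of 4.69), Crot (2.50), Acad11 (2.16), Ehhadh (1.47), Pex11a (1.46), Decr2 (1.39) and Acaa1a (1.07). The other 2 were Cpt1a (1.26) and Fabp1 (1.07), the latter on only 7 and 3 counts in tumours 1 and 2. The median log2 ratio was 1.46 over the peroxisomal members and 0.54 over the mitochondrial members. The order was the reverse in the related lists, at 0.39 over the other peroxisomal and 0.79 over the other mitochondrial oxidation genes. Over the peroxisome assembly genes it was 0.50. The members higher in tumour 2 were Acsl5 (-0.77), Acsl1 (-0.71), Acaa1b and Acadl (-0.39 each). Acaa1b had only 13 and 22 counts in tumours 1 and 2. With 1 library each, no test was made. With either tumour left out, the fold of 14 members differed from the fitted value by over 1.5 times in at least 1 of the 2 cases, with all 32 still lower. The folds with a tumour left out are log2 ratios with a prior count, which shrinks folds at low counts. Part of such a difference can thus come from the change of estimate. Acot3, Acot12 and Fgf21 (-5.12 fitted, -4.22 and -3.61 with a tumour left out) were less negative in both cases. Acad11 had a log2 fold change of -5.88 without tumour 1 and -3.70 without tumour 2, Crot of -3.47 and -0.95, Cpt1a of -3.56 and -2.28, and Ehhadh of -8.00 and -6.52, each in that order. Markers of other cells differed between the tumours in the same libraries. The 9 fibroblast and stellate cell markers summed to 4.11 CPM in tumour 1 and 618 CPM in tumour 2, with Lrat and Lum at 0 in both, and the 10 leukocyte and Kupffer cell markers to 18.4 and 4.14 CPM, with Clec4f and Cd5l at 0 in both. Their part in the difference was not tested.

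Promoters were compared for sequence features. In the 250 bases before the start, the 30 members with a sequence had a median of 11.5 CpG dinucleotides, against 6 for 27025 genes. Where a gene has several listed starts, the one with the most CpG was counted, for members and all genes alike. Acsl1, Bdh1 and Acot3 have 2 listed starts each. Of the 8 members over 100-fold lower in the tumours, Acaa1b, Acot3 and Fabp1 had 2 CpG each, and the other 5 had 9 to 20. None of the 22 members at most 100-fold lower had 5 or fewer, where 47.4% of all genes did. Acaa1a, shown above, had 10 CpG beside the 2 of Acaa1b, while Acot12 had 18 and no count in either tumour. The direct repeat AGGNCANAGGNCA, searched on both strands, occurred in 1 of 30 members and in 0.400% of all genes. That member was Fabp1, whose match TGACCTATGGCCT lies 67 to 55 bases before the start on the opposite strand. The liver factor motif CAAAGTCCA was in 0 of 30 members and 0.451% of genes. The GC box GGGCGGGG was in 12 of 30 members and 18.0% of genes. A match is a description of these letters and not of binding. The thresholds of 5 CpG and 100-fold were chosen after the values were seen.

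**Figure D5:**
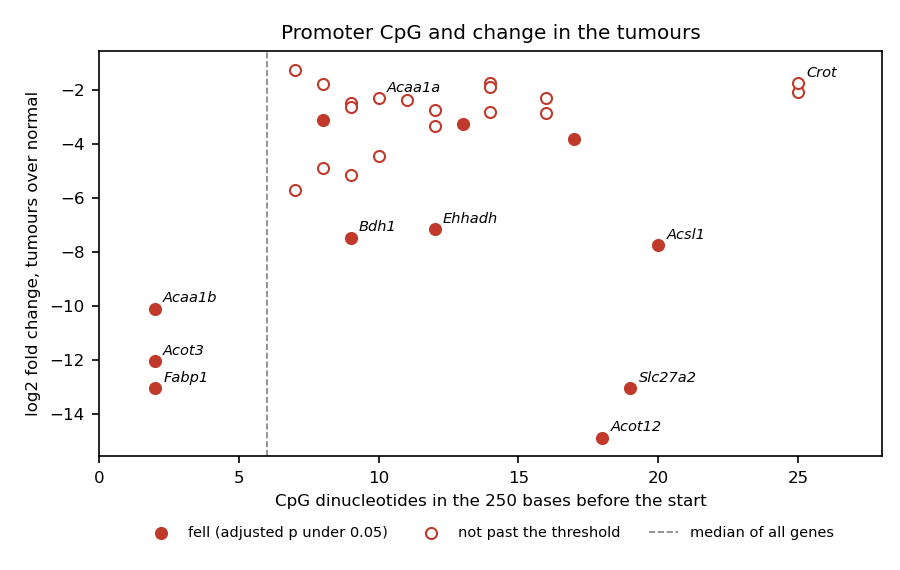
CpG dinucleotides in the 250 bases before the start against the log2 fold change in tumours over normal liver for 30 members, filled where the member fell; the dashed line is the median of all genes. Acaa1b, Acot3 and Fabp1 stand at 2 CpG and low values, and Acot12, Slc27a2 and Acsl1 reach low values at 18 to 20 CpG.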

How the data were processed

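Libraries were prepared from TRIZOL-extracted RNA with an Illumina TruSeq kit, per the labels' protocols. The authors deposited raw read counts per gene symbol, 1 table a library, and no normalised values were used. The submitters' processing notes name FastQC, Trimmomatic, TopHat2 2.0.10, HTSeq, DESeq2 and build mm9, without roles. The strand setting of the counting is not given in the sources used here. Closing lines that name no gene were left out, reads without a feature being 13.6% to 31.5% and reads without a unique place 30.7% to 51.5% of all counts in a table.

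Both tumours were compared with the rounded mean of the normal tables, counted as 1 sample, using edgeR 4.0.16 in R 4.3.3 (filterByExpr with a minimum count of 10, TMM, quasi-likelihood F test, Benjamini-Hochberg over 14468 genes, threshold 0.05). This left 1 residual degree of freedom per gene, with a common dispersion of 0.442 and a median of 3.32 prior degrees of freedom. Genes with no count in either tumour, such as Acot3 and Acot12, give no residual spread, and their tests rest on the prior degrees of freedom. Each SE was taken as the absolute log2 fold change over root F. Levels are CPM with TMM factors from the 4 tables, and comparisons with each normal table used a fit of all 4. Comparisons of 1 library with 1 have no test. DESeq2 1.42.0 was an alternative. The test was tried first on simulated counts with a smaller dispersion than the 0.442 fitted here. That trial does not show how the test behaves at this spread.

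Shared sequence is the share of a gene's sampled 31-mers also found in another gene of GENCODE M21, uncertain above 10%. Lengths are exon unions of the same annotation. Members and gene lists were chosen with earlier results of these data known. All members are named, and of other lists up to 4 called genes a direction by adjusted p and up to 3 genes higher in both tumours. Markers of adipocytes summed to 6.62 and 5.55 CPM in tumours and 24.9 and 23.2 CPM in normal liver, of muscle to 1.60 and 32.3 against 0.208 and 0.257, of kidney tubule to 1.88 and 5.87 against 1.15 and 1.03, and of endothelium to 0.571 and 1.14 against 261 and 243. Intervals cover counting error only. Some genes of the ketone body list are not reported here.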

Additional observations from a re-analysis of the deposited data

How the results depend on the processing

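The members in each fit kept a negative log2 fold change under every alternative run, except Acsl5, which turned to 0.15 without scaling. The members called lower numbered 12, and 7 without scaling, 19 without the filter on low counts, 25 with DESeq2 and 29 with the normal tables as separate libraries, a fit whose spread is too small because those tables share counts. Without genes that share sequence, an alternative chosen after seeing the data, 6 of the 20 members left were called, all among the 12. In that fit 520 of 11311 genes were called lower. The other 6 of the 12 were left out by construction. All genes called lower numbered 751 of 14468, and 472 of 14468, 1383 of 18506, 1743 of 13626 and 3157 of 13511 under the first 4 of these settings. Those called higher numbered 322, and 635, 903, 1666 and 3058 in the same fits. Against the wild type table in the fit of all 4 libraries, 14 members were called, where 6.62% of all genes were lower, and 9 without scaling. Leaving out a normal table gave 11 to 14 members, 695 to 838 genes lower and 278 to 422 higher. Without scaling Cpt2, Slc25a20, Hadhb, Acaa2 and Acot3 lost their calls; the cause was not tested. Leaving out a tumour sets 1 library against 1 and has no test. The members' median was -3.53 without tumour 1 and -2.83 without tumour 2. The folds of single members, here log2 ratios with a prior count, differed from the fitted ones by over 1.5 times in 12 and 10 members. Of the called members these were Ehhadh, Acot3 and Acot12 in both cases, and Fabp1 (-12.01) and Slc27a2 (-12.45) without tumour 2. Acot3 (-8.02 and -7.80) and Acot12 (-10.83 and -10.61) have no count in either tumour, so their values rest on the prior count. Fabp1, Slc27a2 and Fgf21 have few counts in the tumours, so the prior count weighs on their values too. No paired analysis was possible because the labels match no tumour to a normal library of the same animal. Counts of 0 to 3 in a tumour limit a fold to a bound or a wide interval.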
